A study of Mus musculus with 3 samples.

Results

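The liver X receptors and the genes of cholesterol efflux were followed as a set of 10 genes, *Nr1h2*, *Nr1h3*, *Abcg1*, *Abca1*, *Mylip*, *Srebf1*, *Lpcat3*, *Apoe*, *Apoc1* and *Scarb1*. They are 10 of the 22911 genes that could be named on the array, and all 16 probes whose accessions map to these symbols were taken, whatever their signal. The mRNA was measured in Colon26, a murine colon adenocarcinoma cell line, and in its sublines LuM1 and NM11, which the submitters describe as high-metastatic and low-metastatic cells. All 3 lines carry the labels BALB/c and female, grew in RPMI1640 with fetal bovine serum, antibiotics and an antifungal agent, and were harvested after 3 days. Each line was represented by 1 culture and 1 array, hybridized with Cy3-labelled cRNA made from 0.1 µg of total RNA. Whether a line is a single clone is not given in the sources used here.

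Liver X receptors are nuclear receptors that bind oxysterols and, paired with retinoid X receptors, switch on genes that carry cholesterol out of the cell. NR1H2 (LXR beta) is found in most tissues, whereas NR1H3 (LXR alpha) is best known from liver, intestine, fat and macrophages. ABCA1 hands cholesterol to lipid-poor apolipoproteins and ABCG1 to larger particles, MYLIP (also called IDOL) marks lipoprotein receptors for degradation, and the intestine is one of the tissues where this circuit is well known.

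The arrays differed little in quality, with 49.9 to 53.8% of 56605 probes well above background and no saturated spot. Signals are given in the arbitrary units of the scanner after each array was brought to the same 75th percentile, with the error that the scanner software assigns to the spot. With 1 array per line there was no replicate check and no test could be run, so a difference was set against that error, and ratios of at least 2-fold were counted. The error covers a spot on 1 array and not the spread between cultures. Where a probe was not well above background on one array, the ratio is written as "at least", against the higher of the probe's own signal and the lowest signal well above background there (26.4 in Colon26, 20.1 in LuM1, 19.6 in NM11). The direction of such a ratio was fixed by the array on which the probe was well above background. Levels of different probes are not compared with each other.

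The labelled cell type was checked against marker genes. Of 7 epithelial markers, 3 were well above background in Colon26, 4 in LuM1 and 3 in NM11 cells, and *Cdh1*, *Krt18* and *Krt19* were not well above background on any array. Of 7 colon epithelium markers, 3 were well above background in each line, whereas *Cdx1*, *Vil1*, *Cdh17* and *Muc2* were not in any. *Cdx2*, a transcription factor of intestinal epithelium, gave 443 in Colon26, 232 in LuM1 and 167 in NM11 cells. In the same order, *Lgals4* gave 198, 71.7 and 68.2, *Krt20* gave 651, 54.5 and 157, and *Krt8* gave 28.9, 108 and 37.1. Some fibroblast markers differed widely between the lines and others did not, and 5 of 7 were well above background in Colon26 and 7 of 7 in both sublines. Their summed signals, carried by a few bright genes, were 66331, 55460 and 121223 in Colon26, LuM1 and NM11 cells. *Dcn*, a matrix proteoglycan, exceeded Colon26 by at least 1041-fold in LuM1 and by at least 363-fold in NM11 cells, and *Col1a2* gave 59896 in Colon26, 49.6 in LuM1 and 85275 in NM11 cells. *Thy1*, *Pdgfra* and *Col3a1* were also at least 2-fold higher in both sublines than in Colon26 cells. *Col1a1* gave 4918, 2247 and 6045 in Colon26, LuM1 and NM11 cells, and *Pdgfrb* was level at 993, 966 and 947. The part of these differences in the results on sterol genes was not tested.

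Of the 10 genes, 6 differed by at least 2-fold between some pair of lines, and 4 (*Nr1h2*, *Abca1*, *Srebf1* and *Lpcat3*) did not. The share of all genes that differed so between some pair was not computed, so nothing is drawn from the count of 6. Under another scaling 3 of the 4 others passed 2-fold, with up to 2.33-fold for *Abca1* in LuM1 over Colon26, and up to 2.93-fold for *Lpcat3* and 2.10-fold for *Nr1h2* in LuM1 over NM11. In LuM1 cells 3 of the 10 genes (*Mylip*, *Apoc1* and *Abcg1*) exceeded Colon26 cells by at least 2-fold, where 12.9% of 14353 genes did, and 1 (*Scarb1*) was at least 2-fold lower, where 11.7% were. In NM11 cells 2 genes (*Mylip* and *Apoe*) were at least 2-fold higher than in Colon26 cells, where 8.17% of 14109 genes were, and 2 (*Abcg1* and *Nr1h3*) were lower, where 7.74% were. Between the sublines, 3 genes (*Abcg1*, *Apoc1* and *Nr1h3*) exceeded NM11 by at least 2-fold in LuM1 cells, where 11.1% of 14415 genes did, and 0 were lower, where 8.5% were. The 3 comparisons share their arrays in pairs, so they are not independent of each other. Because RNA came from whole cultures, fewer cells of a type and less RNA per cell cannot be told apart.

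**Figure D1:**
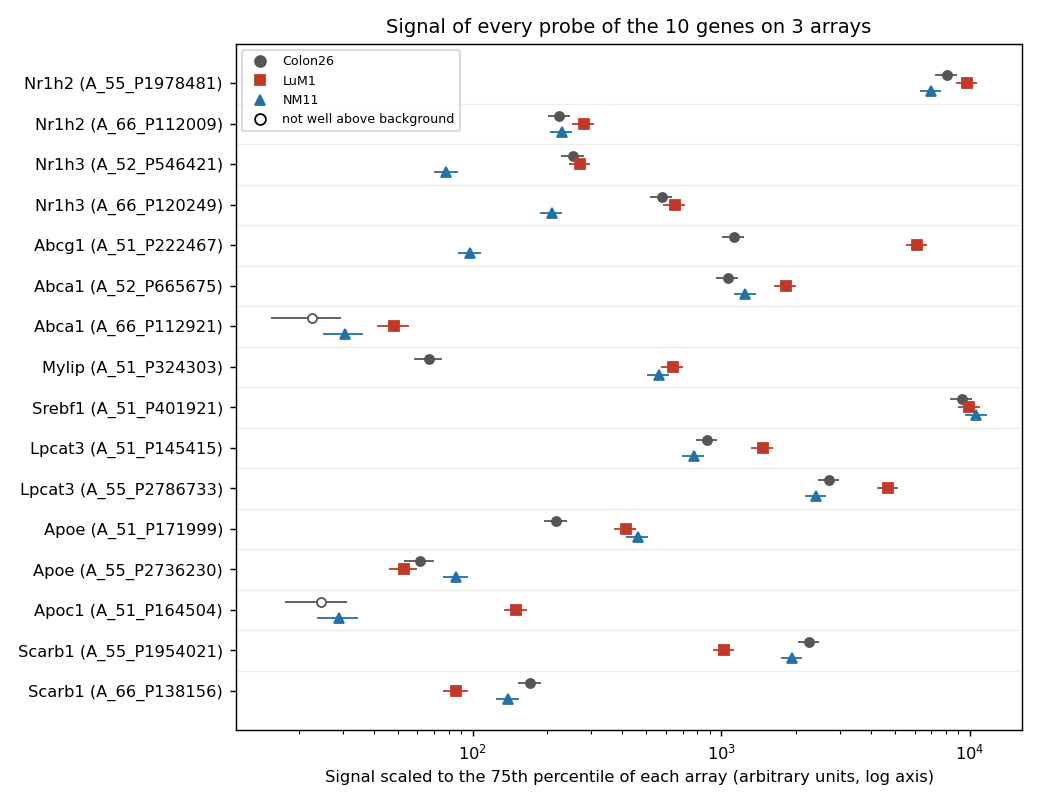
Scaled signal of each of the 16 probes (rows) on a log axis in arbitrary units, with 1 point per cell line and bars for the scanner software's error on that array. Open points are not well above background. Abcg1 spread widest, from 97.6 in NM11 to 6139.6 in LuM1 cells, Mylip was low in Colon26 cells only, and the points of Srebf1 overlapped.

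For LuM1 over Colon26 the median log2 ratio was 0.78 over the 9 members measured on both arrays and -0.13 over all 12397 genes measured on both. For NM11 over Colon26 it was -0.17 over 9 members and -0.02 over 12471 genes. For LuM1 over NM11 it was 0.51 over 10 members and -0.11 over 12851 genes. Of the 10 genes, 9 lay above 0 for LuM1 over Colon26, 5 for NM11 over Colon26 and 7 for LuM1 over NM11, whereas 41.7%, 48.0% and 43.0% of all measured genes did. The counts over Colon26 include *Apoc1*, a bound whose direction was fixed, because its probe was not well above background in Colon26 cells. The shares of all genes hold only genes measured on both arrays, so these counts and shares are not alike. These figures move with the scaling between arrays, since scaling to *Hprt*, to spike-in controls or to the processed values of the series shifted the median of all genes by up to 0.59 (log2).

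**Figure D2:**
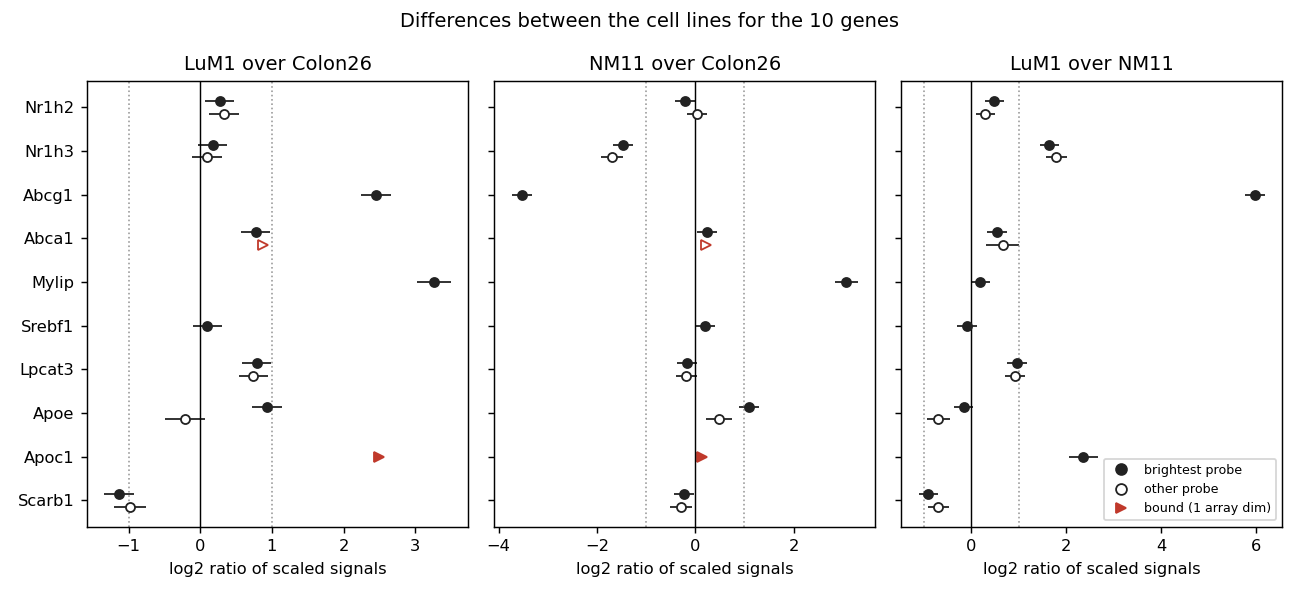
Log2 ratios of the scaled signals for the 10 genes in the 3 comparisons, with filled points for the brightest probe of a gene, open points for its other probe, and bars for the combined scanner error of both arrays. Triangles are bounds, and dotted lines mark 2-fold. The brightest probes of Abcg1, Apoc1 and Mylip lay beyond 2-fold in LuM1 over Colon26, whereas only Mylip and Apoe lay beyond it on the higher side in NM11 over Colon26.

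Of the receptors, *Nr1h2* varied within 2-fold and *Nr1h3* was low in NM11 cells. *Nr1h2* was read by a bright probe that gave 8071 ± 807 in Colon26, 9758 ± 976 in LuM1 and 6979.6 ± 698 in NM11 cells. These signals span 1.40-fold from the highest to the lowest, and the log2 ratios were 0.27 ± 0.20 for LuM1 over Colon26 and -0.21 ± 0.20 for NM11 over Colon26. The second *Nr1h2* probe, drawn from another transcript accession, gave 223 ± 23.0, 280.2 ± 28.3 and 228 ± 23.2 in the same order. *Nr1h2* was therefore measured in every line, and neither probe separated the lines by 2-fold.

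*Nr1h3*, the receptor with the narrower tissue range, was lower in NM11 cells than in both other lines. Its brightest probe gave 576 ± 57.9 in Colon26, 650.3 ± 65.2 in LuM1 and 208 ± 21.2 in NM11 cells. Colon26 and LuM1 cells did not differ beyond the scanner error (log2 ratio 0.17 ± 0.20), whereas the NM11 signal was 32.0% of the LuM1 signal and lay outside both other values. NM11 over Colon26 came to a log2 ratio of -1.47 ± 0.21, and 296 of 12471 genes were at least as low. The second probe gave 254 ± 25.9, 271 ± 27.4 and 78.4 ± 8.75, with log2 ratios of -1.69 ± 0.22 for NM11 over Colon26 and 1.79 ± 0.22 for LuM1 over NM11. Both probes thus placed NM11 lowest, by 2.77- to 3.23-fold against Colon26 and by 3.12- to 3.45-fold against LuM1 cells.

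The retinoid X receptor partners did not follow that order by 2-fold. *Rxra*, a partner found in many tissues, gave 12154 in Colon26, 16773 in LuM1 and 9824 in NM11 cells (log2 ratios of 0.46 and -0.31 against Colon26). *Rxrg* was not well above background on any array. Of 13 retinoid X receptors and coregulators, 12 could be compared, of which 1 exceeded 2-fold upwards in LuM1 against Colon26 cells, 0 downwards, and 0 differed by 2-fold between NM11 and Colon26 cells. That gene was *Nrip1*, a corepressor of nuclear receptors, with 564 in Colon26, 1131 in LuM1 and 413 in NM11 cells and a log2 ratio of 1.45 for LuM1 over NM11.

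The 2 cholesterol exporters behaved differently from each other. *Abcg1* had 1 probe, and its signals of 1122 ± 112 in Colon26, 6139.6 ± 614 in LuM1 and 97.6 ± 10.5 in NM11 cells lay far apart. The NM11 signal was 0.0869 times the Colon26 signal (log2 ratio -3.52 ± 0.21), a fall that 38 of 12471 genes equalled or passed, *Abcg1* included. In LuM1 over NM11 the log2 ratio of 5.98 ± 0.21 was reached by 15 of 12851 genes, and in LuM1 over Colon26 that of 2.45 ± 0.20 by 288 of 12397. Over 11 other settings the ratio of LuM1 over NM11 ran from 39.2-fold with normexp to 94.7-fold with scaling to *Hprt*, and the NM11 signal from 0.0620 to 0.132 times that of Colon26. The order of genes by ratio does not depend on the factor chosen for each array. *Abcg1* and *Nr1h3* were the only members at least 2-fold lower in NM11 than in Colon26 cells under the scaling used, and both had their highest signal in LuM1 cells, for *Nr1h3* within the scanner error of Colon26.

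*Abca1* moved within 2-fold. Its brightest probe gave 1061 ± 106 in Colon26, 1816 ± 182 in LuM1 and 1251 ± 125 in NM11 cells, so LuM1 was highest and the parental line lowest. The log2 ratios were 0.78 ± 0.20 for LuM1 over Colon26, 0.24 ± 0.20 for NM11 over Colon26, which turned to -0.25 when arrays were scaled to *Hprt*, and 0.54 ± 0.20 for LuM1 over NM11. The second probe was dim, with 22.6 ± 7.06 in Colon26 (not well above background), 48.3 ± 7.05 in LuM1 and 30.7 ± 5.65 in NM11 cells. It placed LuM1 at least 1.83-fold over Colon26 cells. *Abca1* and *Abcg1* therefore parted in NM11 cells, where the brightest probe of the first was at 68.9% and the probe of the second at 1.59% of its own LuM1 signal.

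**Figure D3:**
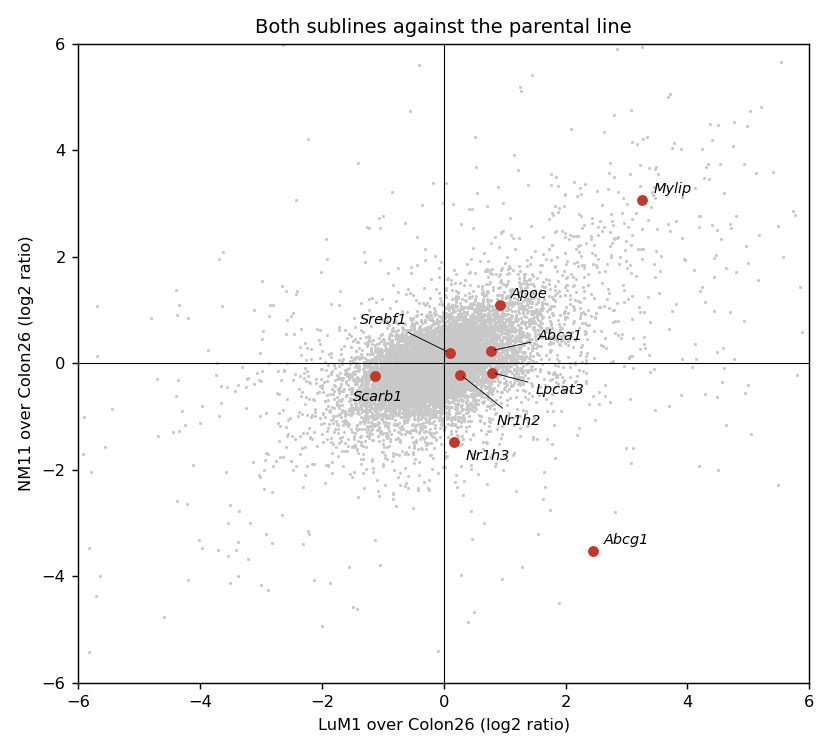
Log2 ratio of NM11 over Colon26 (vertical axis) against LuM1 over Colon26 (horizontal axis) for the 12249 genes measured well above background throughout (grey, brightest probe), with 9 of the 10 genes in red. Apoc1, a bound, is not drawn, and 35 genes lie outside the axes. Both axes share the Colon26 array. Abcg1 sits at 2.45 and -3.52, Mylip at 3.26 and 3.07, and Nr1h3 near 0 on the horizontal and at -1.47 on the vertical axis.

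*Abcg1* had few genes near it in pattern. Among 12248 other genes that every array measured well above background, the nearest by Euclidean distance of both log2 ratios to Colon26 were *Nme4* (2.81 and -2.79, distance 0.81), *Plcg2* (1.55 and -3.20, distance 0.95) and *Cracr2b* (1.74 and -2.75, distance 1.05). *Nr1h3* lay closer to other genes, namely *Lpin3* and *Fgfbp3*, both at a distance of 0.02, and *Gm3716* at 0.10. These distances rest on 3 arrays and describe the pattern alone.

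Receptors act on promoters through a pair of short motifs in the same orientation, separated by a spacer of 4 bases (DR4). The 250 bases before the annotated start of *Abca1* and of *Srebf1*, both long-known targets with such an element, and of *Mylip*, the member with the highest measured ratio over Colon26 cells, are shown so that the measured targets can be set beside their sequence (RefSeq, GRCm38.p6, written in the direction of the gene). Capitals mark a stretch that matches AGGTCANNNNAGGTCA on either strand with at most 3 of the 12 fixed letters different.
*Abca1*, chr4:53159896-53160145, minus strand: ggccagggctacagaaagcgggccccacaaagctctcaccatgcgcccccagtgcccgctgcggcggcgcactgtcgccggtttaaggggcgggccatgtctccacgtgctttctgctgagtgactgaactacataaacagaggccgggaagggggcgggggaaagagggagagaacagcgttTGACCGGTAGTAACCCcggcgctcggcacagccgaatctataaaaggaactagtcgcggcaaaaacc
*Srebf1*, chr11:60210472-60210721, minus strand: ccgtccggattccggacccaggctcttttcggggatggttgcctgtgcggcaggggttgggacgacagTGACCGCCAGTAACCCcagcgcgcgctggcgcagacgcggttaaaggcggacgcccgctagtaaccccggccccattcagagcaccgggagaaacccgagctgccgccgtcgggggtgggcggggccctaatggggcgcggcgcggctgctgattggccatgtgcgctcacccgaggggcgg
*Mylip*, chr13:45389492-45389741, plus strand: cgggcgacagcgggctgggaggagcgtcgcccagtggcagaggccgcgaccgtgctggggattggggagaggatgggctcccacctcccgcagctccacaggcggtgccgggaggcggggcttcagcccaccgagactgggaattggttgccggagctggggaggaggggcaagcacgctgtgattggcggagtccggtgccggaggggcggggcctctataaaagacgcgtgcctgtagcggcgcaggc
In *Abca1* the match lay 67 to 52 bases before the start on the opposite strand and reads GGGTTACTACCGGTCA there, with 3 differences. In *Srebf1* it lay 182 to 167 bases before 1 of the 3 annotated starts, again on the opposite strand, and reads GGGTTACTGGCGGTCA, also with 3 differences. *Mylip* held no match in this window, which says only that these letters are not in it. Sequence was at hand for 12 windows of 7 of the 10 genes, and 2 of the windows held a match. Of all 32851 windows of 300 bases in the table, 21.9% held one, so a match at this tolerance is common. The probe on the array does not tell which start of *Srebf1* was used.

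*Mylip* showed the highest ratio over the parental line among members measured on all 3 arrays. Its probe gave 66.8 ± 8.73 in Colon26, 639 ± 64.0 in LuM1 and 560.5 ± 56.2 in NM11 cells. Both sublines lay far above Colon26 cells, by 9.57-fold in LuM1 (log2 3.26 ± 0.24) and 8.39-fold in NM11 (log2 3.07 ± 0.24). The sublines did not differ from each other beyond the scanner error (0.19 ± 0.20). Ratios at least as high were found in 156 of 12397 genes for LuM1 and 104 of 12471 for NM11 cells. With normexp, which also adds an offset and starts from the median brightness, the ratios were 5.20-fold and 4.43-fold. The genes nearest in pattern were *Mndal* (distance 0.04), *Tmem140* (0.05) and *Cebpd* (0.19).

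*Scarb1*, the receptor that takes up cholesteryl esters from high-density lipoprotein and also lets cholesterol out, was the only member that fell short of Colon26 by at least 2-fold in LuM1 cells. Its brightest probe gave 2257 ± 226 in Colon26, 1028 ± 103 in LuM1 and 1926 ± 193 in NM11 cells. The log2 ratio of LuM1 over Colon26 was -1.13 ± 0.20, and LuM1 lay outside both other values. The second probe gave 170.3 ± 18.0, 85.9 ± 9.68 and 139 ± 14.5, with a log2 ratio of -0.99 ± 0.22. Both probes placed LuM1 lowest, at 45.6% and 50.4% of Colon26, and 919 of 12397 genes were at least as low as the brightest probe. Under the spike-in scaling and in the processed values of the series the ratio no longer reached 2-fold. The nearest genes in pattern were *Wwc1* (distance 0.0098), *Tnfrsf22* (0.02) and *Polr2m* (0.02).

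*Srebf1*, which encodes the transcription factor of fatty acid synthesis, varied little, with 9296 ± 929.6 in Colon26, 9966 ± 997 in LuM1 and 10635 ± 1064 in NM11 cells. No pair of lines differed beyond the scanner error, and the span was 1.14-fold. The log2 ratios over Colon26 were 0.10 ± 0.20 and 0.19 ± 0.20, and the latter became -0.29 with scaling to *Hprt*. The array does not separate the products of the annotated starts.

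*Lpcat3*, the enzyme that puts polyunsaturated fatty acids into phospholipids, was highest in LuM1 cells by both probes, short of 2-fold as scaled here and past it in 5 of 11 other settings for LuM1 over NM11 and 2 of 11 for LuM1 over Colon26. The brightest probe gave 2713 ± 271 in Colon26, 4686 ± 469 in LuM1 and 2405 ± 240.5 in NM11 cells. The log2 ratios were 0.79 ± 0.20 for LuM1 over Colon26 and 0.96 ± 0.20 for LuM1 over NM11, whereas NM11 and Colon26 cells did not differ beyond the error (-0.17 ± 0.20). The second probe, with 878 ± 88.0, 1467 ± 147 and 775 ± 77.6, gave 0.74, 0.92 and -0.18. Among 10 other lysophospholipid acyltransferases, LuM1 exceeded Colon26 by at least 2-fold for 0 and was lower for 1. That gene was *Mboat1*, with 3138 in Colon26, 200.3 in LuM1 and 1811 in NM11 cells (log2 ratio -3.97). In NM11 over Colon26, 1 of them was at least 2-fold higher and 2 were lower. *Lpcat2*, which also serves the synthesis of platelet-activating factor, was the higher one, with a signal not well above background in Colon26, 51.8 in LuM1 and 64.0 in NM11 cells. It was a bound whose direction was fixed (1.37-fold with normexp), and its second probe was not well above background on any array. *Mboat2* gave 113 in Colon26 and 194 in LuM1 cells and was not well above background in NM11 cells, a log2 ratio of LuM1 over NM11 of at least 3.31 (1.66 with normexp). *Agpat1*, which makes phosphatidic acid, gave 3145, 1993 and 1511.

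The apolipoproteins that accept cholesterol were both lowest in Colon26 cells by their brightest probes, for *Apoc1* within the scanner error of NM11 cells. *Apoe* gave 217 ± 22.3 in Colon26, 412 ± 41.4 in LuM1 and 462 ± 46.4 in NM11 cells. The log2 ratios over Colon26 were 0.93 ± 0.21 for LuM1 and 1.09 ± 0.21 for NM11. The sublines did not differ beyond the error (-0.16 ± 0.20, which turned to 0.43 with scaling to *Hprt*). The second *Apoe* probe gave 61.4 ± 8.56, 53.0 ± 7.02 and 85.8 ± 9.61, with log2 ratios of -0.21 ± 0.28 and 0.48 ± 0.26. The probes thus disagreed in sign on LuM1 over Colon26 and shared it in the other comparisons. With the mean of both probes, NM11 over Colon26 was 0.79 and no longer reached 2-fold. The genes nearest in pattern to the brightest probe were *Prkar1a* (distance 0.0022), *Slc24a5* (0.02) and *Papolg* (0.03).

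*Apoc1*, a small apolipoprotein encoded beside *Apoe*, was high in LuM1 cells only. Its probe gave 24.5 ± 6.85 in Colon26 (not well above background), 149 ± 15.7 in LuM1 and 29.1 ± 5.44 in NM11 cells. LuM1 cells exceeded Colon26 at least 5.65-fold and NM11 5.13-fold (log2 2.36 ± 0.31), and 231 of 12851 genes were at least as high in LuM1 over NM11. The signal was low on 2 of the arrays, and the normexp correction gave 2.25-fold and 2.16-fold. *Apoe* and *Apoc1* therefore differed in order, with the brightest *Apoe* probe similar in LuM1 and NM11 cells.

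Of 18 other apolipoproteins and lipid transfer proteins, 11 could be compared between LuM1 and Colon26 cells, with 1 (*Apoc2*) at least 2-fold higher and 1 (*Pltp*) lower. In NM11 over Colon26, of 12 well above background in either line, 1 was higher and 1 lower, and *Apoc2* and *Apoa1* gave no ratio. In LuM1 over NM11, 1 was higher and 2 were lower. *Clu*, a secreted chaperone also called apolipoprotein J, gave 2669 in Colon26, 3482 in LuM1 and 9795 in NM11 cells and was thus highest in NM11 cells. *Apod*, a lipocalin that carries small lipids, gave 44.7, 27.8 and 88.0, close to background.

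Across the 6 genes with 2 probes, 16 ratios were measured by both. The probes shared the sign in 14 of the 16, and the median absolute difference was 0.15 (log2). The highest difference was 1.14, for *Apoe* in LuM1 over Colon26, and without *Apoe* it was 0.24.

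The other genes of sterol transport and sensing were taken as 8 lists with 117 distinct genes, each with a probe. In LuM1 over Colon26, 15 of 95 genes that could be compared were at least 2-fold higher (15.8%, beside 12.9% of all genes) and 9 were lower (9.47%, beside 11.7%). In NM11 over Colon26, 11 of 92 genes well above background in either line were higher (12.0%, beside 8.17%) and 4 lower (4.35%, beside 7.74%). In LuM1 over NM11, 12 of 94 were higher (12.8%, beside 11.1%) and 10 lower (10.6%, beside 8.5%). The counts of single lists that follow are to be read against the same shares of all genes. The median log2 ratios were -0.03, -0.03 and -0.05. The largest count within a list was found for oxysterol and bile acid enzymes, where LuM1 exceeded Colon26 by at least 2-fold for 6 of 9 and was lower for 0. Of these 6, *Ch25h* and *Sult2b1* were bounds whose direction was fixed. The others, *Cyp51*, *Dhcr7*, *Hsd3b7* and *Cyp39a1*, were measured on both arrays, and *Cyp51* belongs to cholesterol synthesis.

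**Figure D4:**
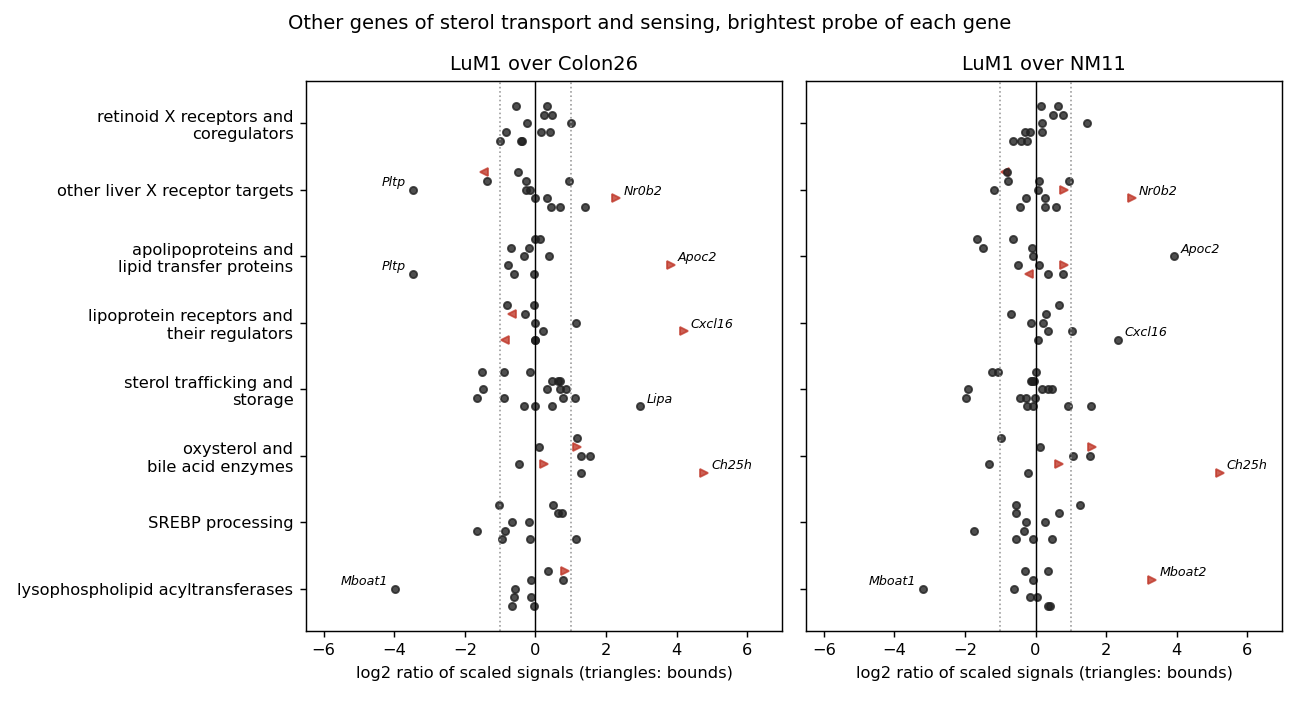
Log2 ratios of the brightest probe of each gene in 8 lists of sterol genes, for LuM1 over Colon26 (left) and LuM1 over NM11 (right). Triangles are bounds and dotted lines mark 2-fold. Ch25h lies at a bound of 4.79 in LuM1 over Colon26, and Mboat1 lies at -3.97.

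Of 11 oxysterol and bile acid enzymes, LuM1 cells had 9 well above background and each of the other lines 6. The 3 that were so only in LuM1 cells could be compared only for that reason, so their direction was fixed, and the 6 measured on both arrays had median log2 ratios of 1.23 for LuM1 over Colon26, 0.67 for NM11 over Colon26 and -0.05 for LuM1 over NM11. *Ch25h*, which makes 25-hydroxycholesterol, gave 730.0 in LuM1 cells and was not well above background in Colon26 and NM11 cells, so LuM1 exceeded them at least 27.6-fold and 37.3-fold (9.53-fold and 9.90-fold with normexp). *Hsd3b7*, an enzyme of bile acid synthesis, gave 1428 in Colon26, 4158 in LuM1 and 1975 in NM11 cells, so LuM1 was highest. *Sult2b1*, a sulfotransferase that inactivates oxysterols, gave 60.0 in LuM1 cells, so it exceeded Colon26 at least 2.27-fold and NM11 at least 3.06-fold, which fell to 1.58-fold and 1.54-fold with normexp. *Cyp51*, an enzyme of cholesterol synthesis, followed another order with 958 in Colon26, 2155 in LuM1 and 4256 in NM11 cells. In NM11 over Colon26, 2 of the 6 enzymes that could be compared were higher and 0 were lower, and in LuM1 over NM11, 4 of 9 were higher and 1 was lower.

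Of 20 other receptor targets, 14 could be compared between LuM1 and Colon26 cells, with 2 at least 2-fold higher and 3 lower. Among these, *Nr0b2* (higher) and *Mertk* (lower) were bounds, so their direction was fixed. *Abcg4*, a relative of *Abcg1*, gave 49.9 in Colon26, 133 in LuM1 and 182 in NM11 cells. It was thus higher in both sublines, by 2.66-fold and 3.64-fold (1.65-fold and 2.09-fold with normexp). *Nr0b2*, a corepressor without a DNA-binding domain, gave 129.6 in LuM1 cells and was not well above background in the other lines, so LuM1 exceeded Colon26 at least 4.91-fold and NM11 at least 6.62-fold (2.36-fold and 2.45-fold with normexp). *Pltp*, the phospholipid transfer protein, went the other way, with 381 in Colon26, 34.2 in LuM1 and a signal not well above background in NM11 cells (log2 ratio -3.48 for LuM1 over Colon26). *Vegfa* was read by 4 probes, with log2 ratios for LuM1 over Colon26 of -1.37, -0.83, -0.09 and 0.94. The last came from a dim probe, with 42.6 in Colon26 and 81.8 in LuM1 cells. Known targets measured on both arrays, such as *Abcg4* and *Pltp*, therefore lay on both sides of 0.

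Lysosomal and intracellular sterol handling showed no single direction either. *Lipa*, the acid lipase that frees cholesterol in lysosomes, gave 355 in Colon26, 2762 in LuM1 and 923 in NM11 cells, 7.78-fold and 2.60-fold over Colon26. *Cav1*, a caveolar coat protein, gave 703, 225 and 882, so it was lowest in LuM1 cells. *Stard5* (730 in Colon26, 259 in LuM1 and 982 in NM11 cells) and *Gramd1c* (1199.8, 419.8 and 869), both of families that carry sterols, were lowest there too. Of 18 genes of trafficking and storage that could be compared, LuM1 exceeded Colon26 by at least 2-fold for 2 and was lower for 3. Against NM11 cells, the counts were 1 higher and 4 lower.

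The SREBP system, which senses cell cholesterol and drives synthesis and uptake, did not move as a whole. *Srebf2*, its main factor for cholesterol, gave 812 in Colon26, 1805 in LuM1 and 1913 in NM11 cells, 2.22-fold and 2.36-fold over the parental line. *Insig1*, which holds the precursor in the endoplasmic reticulum, gave 182, 286 and 422. *Insig2*, its relative, ran otherwise, with 1801 in Colon26, 2556 in LuM1 and 1067 in NM11 cells, and all 3 of its probes placed NM11 lowest. *Scap*, the escort of the precursor, was at 8753, 4293 and 6298, and *Erlin1*, a membrane protein of the same compartment, was lowest in LuM1 cells, with 6244, 1987 and 6642. Of 11 genes, LuM1 exceeded Colon26 by at least 2-fold for 1 and was lower for 2, and NM11 exceeded it for 2 and was lower for 0.

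Among lipoprotein receptors and their regulators, LuM1 exceeded Colon26 by at least 2-fold for 2 of 11 and was lower for 0. *Cxcl16*, a membrane chemokine that also binds oxidized lipoprotein, gave 486 in LuM1 and 96.5 in NM11 cells and was not well above background in Colon26 cells, and its second probe gave 517 and 93.7. *Sort1*, a sorting receptor, gave 143 in Colon26, 319 in LuM1 and 155 in NM11 cells with its brightest probe, and its other probes were well above background in LuM1 cells only.

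Of 8 macrophage markers, a cell type with high efflux activity, 4 were well above background in Colon26, 5 in LuM1 and 4 in NM11 cells. Their summed signals, carried by a few bright genes, were 7061, 17064 and 6242 in the same order. The part of these markers in the results on sterol genes was not tested. *Cd68*, a lysosomal glycoprotein, gave 172 in Colon26, 5251 in LuM1 and 299 in NM11 cells, and *Cd14* gave 1153, 4175 and 988. *Csf1r*, the receptor that macrophages need for survival, was level at 682, 691 and 675, and *Itgam* gave 5027, 6818 and 4251. *Lyz2* gave 112 in LuM1 cells and was not well above background in the other lines. The defining markers *Adgre1*, *Ptprc* and *Tyrobp* were not well above background on any array. Of 5 endothelial markers, only *Pecam1* was well above background.

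**Figure D5:**
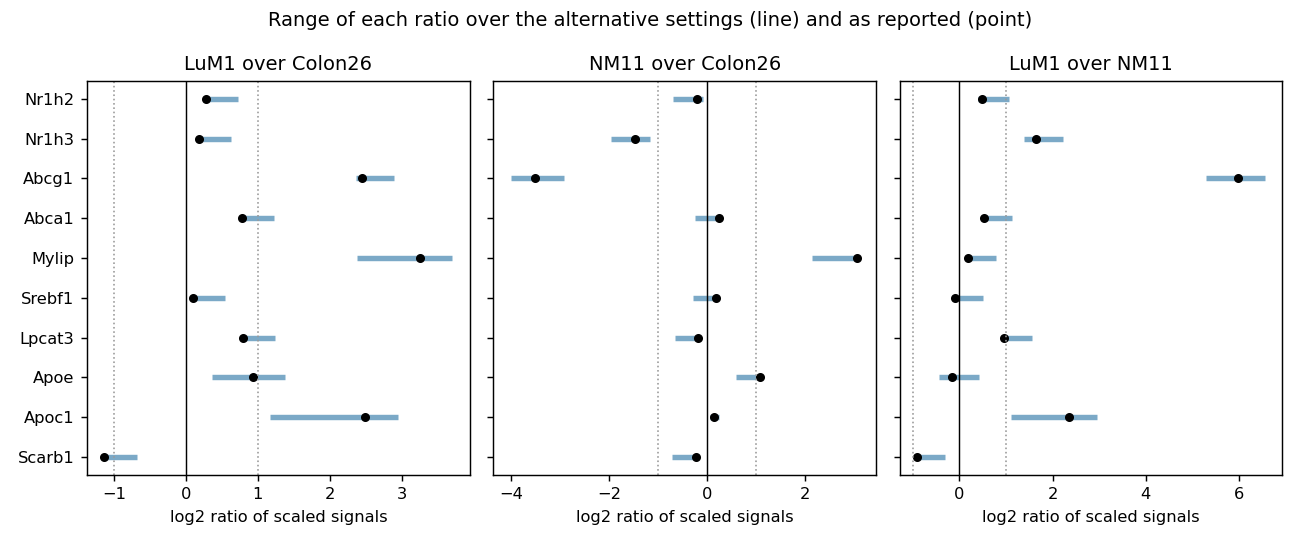
Log2 ratios of the 10 genes in the 3 comparisons as reported (points) and their range over 11 other ways of scaling, background correction, detection and probe choice (lines). Dotted lines mark 2-fold. Abcg1 kept its side of 2-fold in all comparisons, from 2.37 to 2.90 for LuM1 over Colon26, whereas Apoe fell to 0.60 in NM11 over Colon26 and Scarb1 to -0.69 in LuM1 over Colon26.

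Over these 11 settings, the 11 ratios of at least 2-fold all kept their sign, which was largely fixed beforehand. A factor per array shifts all ratios of a comparison alike, here by up to 0.59 (log2), too little to turn a 2-fold ratio. Looser detection leaves ratios measured on both arrays as they were. Of the 11 ratios, 9 stayed beyond 2-fold throughout. The exceptions were *Apoe* in NM11 over Colon26 (beyond 2-fold in 8 of 11) and *Scarb1* in LuM1 over Colon26 (9 of 11). *Nr1h3* in NM11 cells ranged from 0.258 to 0.443 of the Colon26 signal.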

How the data were processed

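The authors deposited intensity values from Agilent Feature Extraction 11.5.1.1, per the file headers background-subtracted and detrended on each array, and not scaled between arrays. They also deposited flags for outliers, saturation and detection (another kind of value, 0 or 1). A spot not significantly above background holds its error in place of a signal, so no level of such a spot is printed. These spots stayed in the percentile, the probe averages, the choice of the brightest probe and the summed marker signals. The setting with detection dropped also took ratios from them. Control and outlier spots (74 to 137 per array) were left out, spots of a repeated probe were averaged, and signals were divided by the 75th percentile of their array. The median SD of repeated probes was 0.035 to 0.040 (log2). Probes were named through RefSeq accessions of GRCm38.p6 (32994 of 56605 probes, 58.3%). The array design rests on an older assembly, so no probe coordinates are given. A gene stands by its brightest probe, and every probe of the 10 genes is shown. Of each list, up to 4 genes with the highest absolute ratio among those of at least 2-fold are named (others are named where a count or a marker check needs them), and the 3 nearest genes in pattern for members of at least 2-fold that were well above background on all arrays. Some genes of the lists are not reported here and were left out of their counts. The members and lists were chosen with earlier results of these data known. The number of arrays, 1 per line, limits the precision, and no test was run. The ratio script was tested on simulated data.

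The scaling was replaced in turn by none, by the median of the probes measured on all arrays, by *Hprt*, by E1A spike-in controls, by quantile normalization and by the processed intensity values deposited for the series. The background correction was replaced by normexp with an offset of 50 (limma 3.58.1 in R 4.3.3, on the median brightness of each spot). Detection was made looser or dropped, and a gene was also represented by its probes' mean or by the probe that LuM1 cells read brightest. The processed values deposited for the series equal the scanner values times a factor of 0.654 (Colon26), 0.829 (LuM1) or 0.706 (NM11), and their medians were 22.6, 35.4 and 22.2. Their scale is linear, and the basis of these factors is not given in the sources used here. Python 3.11.15 with numpy 2.4.6, pandas 2.3.3 and matplotlib 3.10.9 was used for all other steps.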

Additional observations from a re-analysis of the deposited data

How the results depend on the processing

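No paired analysis was possible because each line has 1 array. The counts of members at least 2-fold higher or lower lay within 1.5 times the reported ones in 58 of 66 combinations of comparison, direction and setting. For LuM1 over Colon26 the count of higher members was 6 in place of 3, and that of lower members 0 in place of 1, both with scaling to E1A spike-in controls and in the processed values of the series. Over all genes, the higher count rose in these settings from 1856 to 2368 and 3038, respectively. The lower count fell from 1679 to 1155 and 874. For NM11 over Colon26 the count of higher members was 1 in place of 2 with scaling to *Hprt*, with normexp and with the mean over probes. Over all genes, the higher count went from 1153 to 686, 808 and 1132 in the same order. For LuM1 over NM11 the count of higher members was 6 in place of 3 with scaling to *Hprt*, where the count over all genes rose from 1599 to 3581. No ratio of at least 2-fold, of a member or of a gene that the rule named from the 8 sterol lists, changed sign. A factor per array could not change such a sign, since its shift was at most 0.59 (log2). *Scap*, markers and chromosomal neighbours were not recomputed. Of 329 ratios of members under these settings, 256 moved by less than the scanner error, and of 528 counts in the lists, 57 rose and 32 fell beyond 1.5 times.

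The scaling shifted the median of all genes, and with it the counts. For LuM1 over Colon26 the shift was 0.11 without scaling, 0.10 with *Hprt*, 0.25 with spike-in controls and 0.45 in the processed values of the series, and 52.5% of the genes of at least 2-fold were higher as reported, 67.2% with spike-in controls and 77.7% in the processed values. For NM11 over Colon26 the shift was -0.49 with *Hprt*, and that share went from 51.4% to 20.1%. For LuM1 over NM11 the shifts were 0.18, 0.59, 0.33 and 0.41 for no scaling, *Hprt*, spike-in controls and the processed values, and the share went from 56.6% to 68.6%, 87.8%, 77.6% and 81.4%. A looser detection rule raised the count of lower genes in LuM1 over Colon26 from 1679 to 2716. Signals near background limited *Apoc1* and the second probe of *Abca1*, and the cause of the shifts was not tested.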

Other observations

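The genes around *Apoe* on chromosome 7 did not share 1 pattern. *Apoc2*, which encodes the activator of lipoprotein lipase, gave 376 ± 37.8 in LuM1 cells, 25.0 ± 4.74 in NM11 cells and 19.6 ± 5.88 in Colon26 cells, where it was not well above background. LuM1 thus exceeded Colon26 at least 14.2-fold and NM11 15.1-fold (5.12-fold and 5.01-fold with normexp), an order that *Apoc1* also showed, although the second *Apoc2* probe was not well above background on any array. *Apoc4*, between them, was not well above background on any array. *Tomm40*, on the other side of *Apoe*, encodes the channel of the mitochondrial outer membrane, and its brightest probe gave 10593 in Colon26, 9202 in LuM1 and 15416 in NM11 cells.

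The next gene, *Nectin2*, a cell adhesion receptor, was high in both sublines. Its brightest probe gave 193 ± 20.1 in Colon26, 2599 ± 260.0 in LuM1 and 3199 ± 320.0 in NM11 cells, 13.5-fold and 16.6-fold over the parental line. Its second probe gave 14.6-fold and 18.0-fold. *Clptm1*, at the other end of the stretch, gave log2 ratios of 0.28 and 0.39 over Colon26 cells. These neighbours were chosen for their place on the chromosome.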
